A study of Mus musculus with 4 samples.

Results

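The liver X receptor (LXR) axis and the genes of cholesterol export were followed in myeloid cells sorted from mouse liver, in cells in which LysM-Cre acts on a floxed interleukin-10 receptor gene and in cells with an unmodified receptor gene. The 9 genes were chosen by name from the 55487 genes of the count table: the exporters Abca1 and Abcg1, the lipid carrier Apoe, the ubiquitin ligase Mylip, the transporter Abcc3, the receptors Nr1h3 and Nr1h2, and the sterol regulatory factors Srebf1 and Srebf2. This choice was made with earlier results of these data known. All 9 passed the filter on low counts that left 13496 genes for testing, and the lowest count of any of them in any library was 108, for Nr1h3 in fl/fl 1. In short, Abca1, Abcc3, Apoe and Mylip fell in fl/fl cells, and no call was made for the receptors Nr1h2 and Nr1h3, for Abcg1 or for Srebf1 and Srebf2.

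LXRs are nuclear receptors that bind oxysterols, the oxidised products of cholesterol, and act on DNA together with a retinoid X receptor. When macrophages take up cholesterol, for example with dying cells, LXRs switch on Abca1 and Abcg1, which move cholesterol out of the cell to lipoprotein particles, Apoe, which carries it, Mylip, a ubiquitin ligase that limits the uptake of low-density lipoprotein (LDL), and Srebf1, which drives fatty acid synthesis. The opposite arm, SREBP2 from Srebf2, is activated when sterols are scarce and raises cholesterol synthesis and uptake. In mouse liver, Nr1h3 is also known for its part in the identity of resident macrophages (Kupffer cells).

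The groups were LysM-Cre IL10R fl/fl, with 2 libraries, and LysM-Cre IL10R wt/wt, also with 2, so that both groups carry LysM-Cre, a Cre recombinase expressed from the lysozyme 2 locus in macrophages, monocytes and granulocytes. The sorted cells had CD45 and CD11b on the surface and had neither CD3 nor CD11c, which admits macrophages, monocytes and granulocytes. The labels do not give the age or sex of the mice, nor whether replicate libraries are of different mice, so the p-values measure only the spread of these samples, which for wt/wt may be technical. In bulk samples such as these, fewer cells of a type and less RNA per cell cannot be told apart.

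Total counts were 17750343 and 17154042 in the fl/fl libraries and 22694136 and 26441014 in the wt/wt libraries. Il10ra, the receptor chain that binds interleukin-10, stood at 69.3 and 14.8 CPM in fl/fl cells, against 1111 and 993 CPM in wt/wt cells (CPM are library-scaled counts, here with TMM factors, and pairs of values give library 1 and then library 2). A gene total does not tell reads of a deleted exon from reads of the other exons. The fl/fl libraries stood apart from each other: the second principal component, with 23.9% of the variance, placed them at 44.6 and −49.1, and Xist had 4298 counts in fl/fl 2 and 0 in each of the other libraries. Since Xist is transcribed from the inactive X chromosome of female cells, these counts place a female sample in fl/fl 2 only, so the fl/fl libraries were not from the same mouse and the group mixed the sexes. The markers that define Kupffer cells were near 0: Clec4f, Timd4, Vsig4, Folr2 and Marco did not pass the filter on low counts, and the highest value of these in any library was 1.198 CPM, for Marco in fl/fl 2. General macrophage and monocyte genes were abundant, with Csf1r, the receptor for macrophage colony-stimulating factor, at 817 and 1179 CPM in fl/fl cells and 1677 and 1564 CPM in wt/wt cells.

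Abca1 (ENSMUSG00000015243; GRCm38 chromosome 4, 53030787 to 53159895, minus strand) encodes the transporter that loads cholesterol and phospholipid onto lipid-poor apolipoprotein A-I. Its level was 10.5 and 11.5 CPM in fl/fl cells, against 58.4 and 44.4 CPM in wt/wt cells. The fl/fl libraries lay close together and far below both wt/wt libraries, with no overlap. Abca1 averaged 11.01 ± 0.658 CPM in fl/fl cells and 51.4 ± 9.93 CPM in wt/wt cells (SD, n = 2 each), and it was 4.66-fold lower in fl/fl cells. The log2 fold change was −2.22 ± 0.21 (SE; 95% interval −2.73 to −1.71), with an adjusted p of 0.00879 by edgeR's quasi-likelihood test, which ranked Abca1 31st of the 13496 genes.

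The promoter of Abca1 is shown because LXR acts on this gene through a DR4 element, a pair of direct repeats of a hexamer with 4 bases between them. The 250 bases before the RefSeq start (GRCm38.p6, chr4:53159896-53160145, minus strand) are printed 5′ to 3′, with an E-box and then a DR4 match in capitals.
Abca1: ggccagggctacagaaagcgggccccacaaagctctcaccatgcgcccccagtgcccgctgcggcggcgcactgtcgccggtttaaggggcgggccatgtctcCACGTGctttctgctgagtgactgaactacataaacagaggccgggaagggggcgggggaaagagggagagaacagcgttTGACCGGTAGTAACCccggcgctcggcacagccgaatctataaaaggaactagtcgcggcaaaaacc
The DR4 search used the letters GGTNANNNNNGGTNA on both strands. In Abca1 the match lay on the opposite strand from position −67 to −53, counted from the start, and read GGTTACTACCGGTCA there. The same letters were in 204 of 32851 mouse promoters of this length (0.621%). Abca1 also held an E-box, CACGTG, from −147 to −142, a motif in 6.02% of these promoters. A match is a description of the letters, not evidence of binding in these cells.

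Abcg1 (ENSMUSG00000024030; chromosome 17, 31057675 to 31117988, plus strand) encodes a transporter that passes cholesterol to mature high-density lipoprotein particles. Its level was 61.7 and 103 CPM in fl/fl cells, against 135 and 109 CPM in wt/wt cells. Both fl/fl libraries were below both wt/wt libraries, but fl/fl 2 was near wt/wt 2. Its log2 fold change was −0.57 ± 0.26 (SE; 95% interval −1.19 to 0.06) and did not pass the test (adjusted p = 0.267, edgeR). Abcg1 passed with a log2 fold change of −0.97 (adjusted p = 0.0238, edgeR) without fl/fl 2, and stood at −0.28 without fl/fl 1.

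The proportion of the exporters to each other was compared within each library. On the scale of counts per base of exon, Abcg1 was 8.31 and 12.7 times Abca1 in fl/fl cells, against 3.28 and 3.48 times in wt/wt cells. The ratio was higher in both fl/fl libraries than in either wt/wt library. This difference was not tested further, since an exact permutation test of 2 libraries against 2 cannot go below p = 0.3333.

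Apoe (ENSMUSG00000002985; chromosome 7, 19696109 to 19699188, minus strand), the apolipoprotein that macrophages secrete and that takes up exported cholesterol, had by far the highest level of the 9 genes. It held 3129 and 1794 CPM in fl/fl cells, against 7053 and 7186 CPM in wt/wt cells. Apoe alone took 0.303% and 0.183% of all counts in fl/fl cells, against 0.692% and 0.738% in wt/wt cells. Both wt/wt libraries were high and nearly equal, and both fl/fl libraries were below them, fl/fl 2 more so than fl/fl 1. Apoe averaged 2462 ± 944 CPM in fl/fl cells and 7119 ± 94.2 CPM in wt/wt cells (SD, n = 2 each), a 2.89-fold lower level in fl/fl cells. The log2 fold change was −1.53 ± 0.28 (SE; 95% interval −2.2 to −0.87; adjusted p = 0.0306, edgeR).

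Mylip (ENSMUSG00000038175; chromosome 13, 45389742 to 45412022, plus strand) encodes the ligase also called IDOL, through which LXR lowers the uptake of LDL. It stood at 17.7 and 12.6 CPM in fl/fl cells, against 42.1 and 30.4 CPM in wt/wt cells. The groups did not overlap, although the libraries of each group differed. Mylip was 2.40-fold lower in fl/fl (log2 fold change −1.26 ± 0.26, SE; 95% interval −1.88 to −0.64; adjusted p = 0.0413, edgeR).

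Abcc3 (ENSMUSG00000020865; chromosome 11, 94343295 to 94392997, minus strand) encodes a transporter of organic anions and bile acid conjugates that is best known from hepatocytes and the gut, and which is not a cholesterol exporter. It had the largest fold change of the 9 genes. Its counts were 354 and 123 in fl/fl cells, against 3239 and 3296 in wt/wt cells, or 20.6 and 7.02 CPM against 145 and 121 CPM. The wt/wt libraries were alike, and the fl/fl libraries, both far lower, differed from each other. Abcc3 was 9.66-fold lower in fl/fl (log2 fold change −3.27 ± 0.46, SE; 95% interval −4.38 to −2.17; adjusted p = 0.0183, edgeR). Leaving out fl/fl 1 gave −4.28 and leaving out fl/fl 2 gave −2.69. None of 10 hepatocyte markers passed the test, and Alb, the albumin gene, was at 9.55 and 60.7 CPM in fl/fl cells and 40.0 and 26.7 CPM in wt/wt cells.

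**Figure D1:**
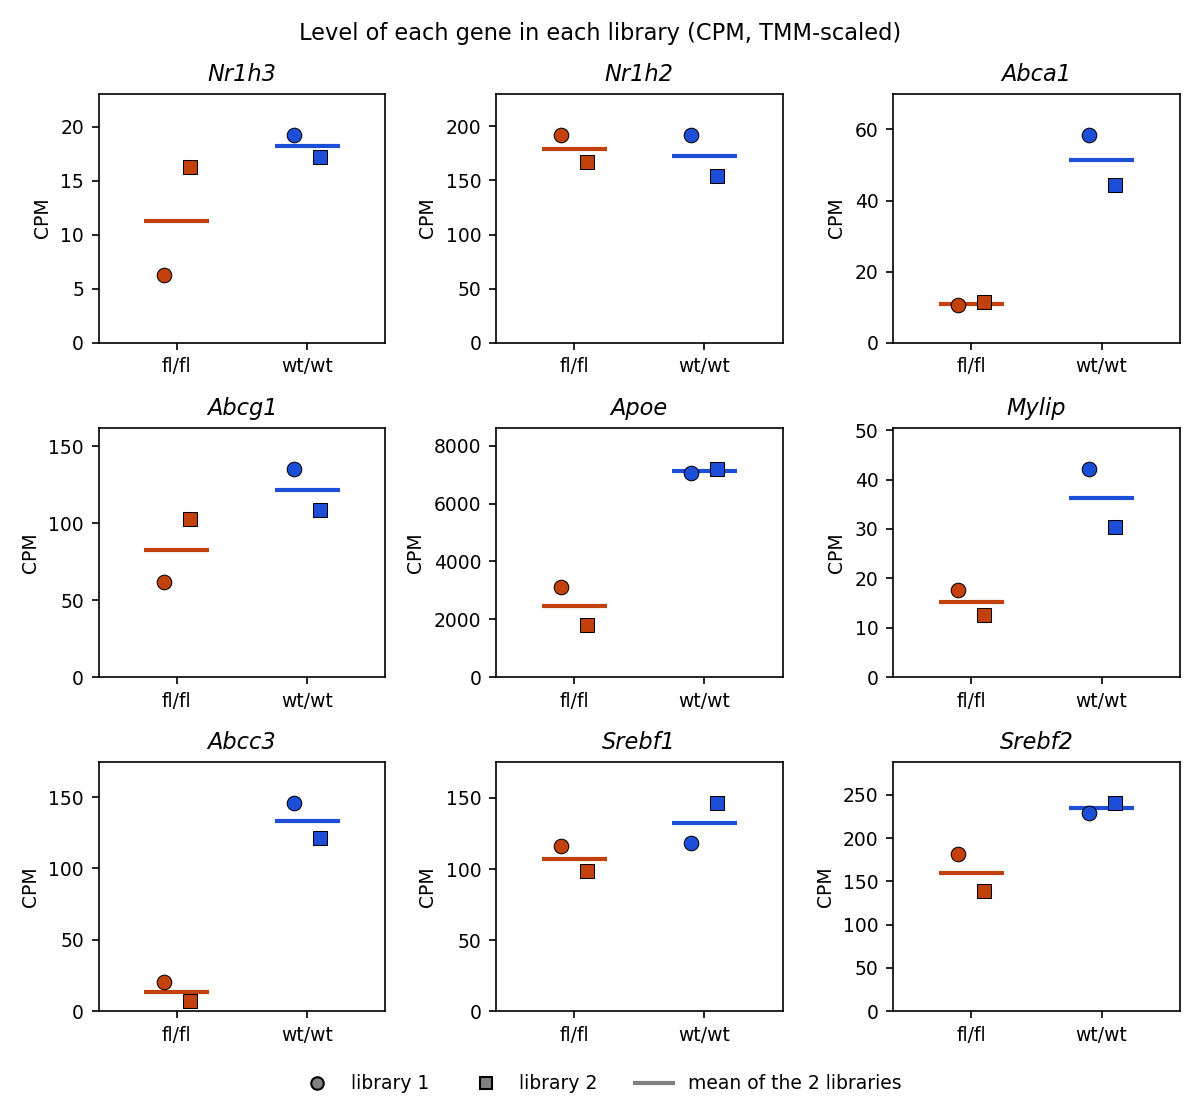
TMM-scaled CPM of each of the 9 genes, 1 panel a gene with a linear axis from 0, with fl/fl left of wt/wt; circles are library 1, squares library 2, and bars the mean of the 2 libraries. Abca1 lies at 10.5 and 11.5 CPM in fl/fl cells and 58.4 and 44.4 CPM in wt/wt cells, while Nr1h2 overlaps between the genotypes.

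The LXR receptor genes were measured at the same time as their targets. Nr1h3 (ENSMUSG00000002108; chromosome 2, 91184061 to 91202834, minus strand) encodes LXRα, the form enriched in macrophages and liver. It was at 6.29 and 16.3 CPM in fl/fl cells, against 19.2 and 17.2 CPM in wt/wt cells. Only fl/fl 1 was low, and fl/fl 2 was just under wt/wt 2. Nr1h3 did not pass the test (log2 fold change −0.69 ± 0.42, SE; 95% interval −1.7 to 0.31; adjusted p = 0.396, edgeR). Its value rested on the fl/fl library used: −1.53 without fl/fl 2 (adjusted p = 0.00924, edgeR) and −0.20 without fl/fl 1. Of the exon bases of Nr1h3, 1.4% are shared with Gm13783.

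Nr1h2 (ENSMUSG00000060601; chromosome 7, 44549616 to 44553951, minus strand) encodes LXRβ, the widely expressed form. It held 192 and 167 CPM in fl/fl cells, against 192 and 154 CPM in wt/wt cells. The groups overlapped, and the log2 fold change was 0.05 ± 0.18 (SE; 95% interval −0.38 to 0.48; adjusted p = 0.909, edgeR), with its sign turned to −0.09 without fl/fl 1 and −0.10 without wt/wt 2. Per base of exon, Nr1h2 was 22.8 and 7.69 times Nr1h3 in fl/fl cells, against 7.49 and 6.70 times in wt/wt cells. LXRβ mRNA thus exceeded LXRα mRNA in all 4 libraries, most in fl/fl 1. Abca1 per unit of Nr1h2 on that scale was 0.0178 and 0.0222 in fl/fl cells, against 0.0985 and 0.0932 in wt/wt cells. With Nr1h2 level, this lower ratio repeats the fall of Abca1 and is not a separate result.

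Srebf1 (ENSMUSG00000020538; chromosome 11, 60199089 to 60222581, minus strand) is itself an LXR target and encodes SREBP1. Its level was 116 and 98.4 CPM in fl/fl cells, against 118 and 146 CPM in wt/wt cells. Both fl/fl libraries were lower, fl/fl 1 only just. Srebf1 did not pass the test (log2 fold change −0.30 ± 0.18, SE; 95% interval −0.73 to 0.12; adjusted p = 0.378, edgeR). Of its exon bases, 1.9% are shared with Rai1 on the opposite strand.

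The most downstream of the 3 RefSeq starts of Srebf1 is shown since it was the other member start with a DR4 match (GRCm38.p6, chr11:60210472-60210721, minus strand; 5′ to 3′, match in capitals).
Srebf1: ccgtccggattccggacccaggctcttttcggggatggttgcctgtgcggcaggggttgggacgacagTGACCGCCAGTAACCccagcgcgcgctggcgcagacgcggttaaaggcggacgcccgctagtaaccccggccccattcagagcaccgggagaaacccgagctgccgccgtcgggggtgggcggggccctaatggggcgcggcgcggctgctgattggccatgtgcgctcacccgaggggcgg
The match lay on the opposite strand from −182 to −168 and read GGTTACTGGCGGTCA. Of the 9 genes, 7 have promoter entries in the RefSeq table used, and among these Nr1h2, Nr1h3, Apoe, Mylip and Srebf2 held no DR4 match in this window. None of the 7 held the sterol response element letters TCACNCCAC, which were in 1.05% of all promoters. Abca1, which fell, and Srebf1, which did not pass, both held a DR4 match, and Apoe and Mylip fell with no such letters in these 250 bases. Nothing outside these windows was searched, so a gene without a match here may hold one elsewhere. Whether a match goes with a fall was not tested.

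Srebf2 (ENSMUSG00000022463; chromosome 15, 82147181 to 82205379, plus strand) encodes SREBP2. It was at 181 and 138 CPM in fl/fl cells, against 229 and 240 CPM in wt/wt cells. Both fl/fl libraries were below both wt/wt libraries. The log2 fold change of −0.56 ± 0.18 (SE; 95% interval −0.99 to −0.12) had an unadjusted p of 0.0197 and did not pass after adjustment over all genes (adjusted p = 0.134, edgeR quasi-likelihood test).

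An intron of Srebf2 holds Mir33, whose product miR-33 is known to repress Abca1 and, in mouse, Abcg1. The mature sequence (RefSeq; GRCm38.p6, chr15:82198127-82198147, plus strand) is given with the seed, bases 2 to 8, in capitals. Below it stand the stretches of the longest 3′ untranslated region (UTR) of Abca1 and of Abcg1 that hold the seed match CAATGCA, in capitals.
miR-33-5p: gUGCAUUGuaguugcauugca
Abca1, UTR bases 136 to 161: ttCAATGCAATGCActtCAATGCAac
Abcg1, UTR bases 718 to 738: cgCAATGCAacgCAATGCAga
Abca1 had 3 matches in 3159 bases and Abcg1 had 2 in 3706 bases, and the other 7 genes had 0. Of 21824 genes with a 3′ UTR in GENCODE M21, 1642 (7.52%) had at least 1 match. The miRNA itself was not measured in these poly(A) libraries, and its host mRNA, Srebf2, had the values given above.

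Read as a whole, 0 of the 9 genes rose and 4 fell in fl/fl by edgeR's test, where 2.69% of all tested genes rose and 3.16% fell. Since the 9 genes were chosen with earlier results of these data known, the shares given here are not a test of the set. For 8 of the 9, both fl/fl libraries were below both wt/wt libraries, and Nr1h2 overlapped. Among all tested genes, 26.3% had both fl/fl libraries below and 28.1% had both above. The median log2 fold change was −0.69 over the 9 genes and 0.02 over all tested genes. DESeq2 called the same number of these genes lower, 4, with 6.18% of all genes lower, and limma-voom also called 4, with 3.04% lower. Without fl/fl 1, 4 of the 9 were lower, beside 4.18% of all genes. Without fl/fl 2, 6 were lower, beside 4.52% of all genes, with Abcg1 and Nr1h3 added.

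**Figure D2:**
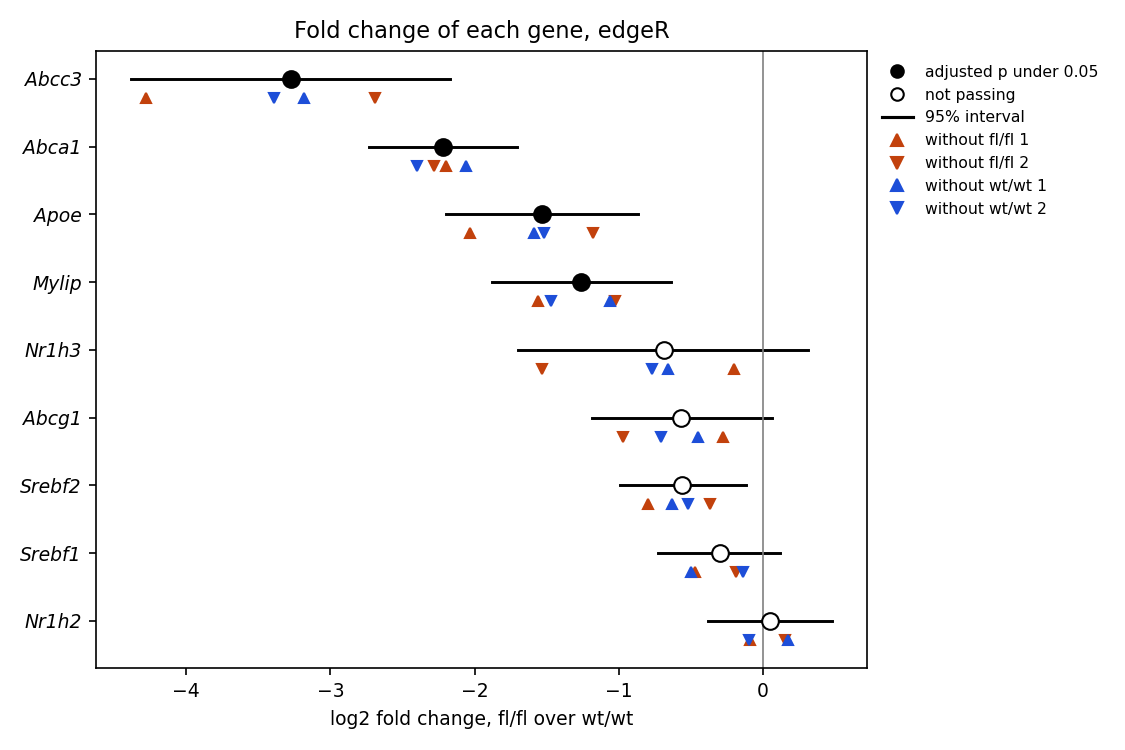
Log2 fold change (fl/fl over wt/wt) of the 9 genes from the edgeR fit with 95% intervals, filled where the adjusted p is under 0.05, and triangles for the value with 1 library left out. The intervals of Abcc3, Abca1, Apoe, Mylip and Srebf2 lie below 0, and of these Srebf2 does not pass after adjustment.

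These calls rest on having both wt/wt libraries. Without wt/wt 1 or without wt/wt 2, edgeR called 0 genes of 14160 and 0 of 14262, while 1576 and 2333 genes had an unadjusted p under 0.05. Without wt/wt 1, the edgeR log2 fold changes were −3.18 for Abcc3, −1.59 for Apoe and −1.06 for Mylip. Without wt/wt 2 they were −3.39, −1.52 and −1.47. Abca1 had an adjusted p of 0.111 without wt/wt 1 and 0.052 without wt/wt 2 (edgeR), with log2 fold changes of −2.06 and −2.40. DESeq2 on the same 3 libraries was chosen after seeing the data. Without wt/wt 1 it gave −2.03 for Abca1, −3.15 for Abcc3, −1.56 for Apoe and −1.02 for Mylip, and Mylip did not pass. Without wt/wt 2 it gave −2.43, −3.42, −1.54 and −1.5.

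The order of the levels shows which mRNAs were most abundant among the 9 genes. Per base of exon, scaled to the same total in each library, Apoe averaged 3036 in fl/fl cells and 9966 in wt/wt cells, and Nr1h2 came next at 143 in fl/fl cells and 154 in wt/wt cells. Srebf2 followed at 59.1 in fl/fl cells and 97.8 in wt/wt cells, and Srebf1 at 50.7 in fl/fl cells and 70.5 in wt/wt cells. Abca1 was last of the 9 genes in both groups, at 2.85 in fl/fl cells and 14.8 in wt/wt cells. Abcc3 was next to last in fl/fl cells, at 6.31, while in wt/wt cells, at 69.9, it was level with Srebf1, with overlapping libraries. In fl/fl, Mylip at 12.4 and Nr1h3 at 12.3 did not separate, nor did Nr1h3 and Abcc3. The other neighbours in both orders did not overlap.

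The genes whose pattern over the 4 libraries was most like that of Abca1 were Rsad2, Runx3 and Dapk1, at Euclidean distances between centred log2 CPM of 0.114 for Rsad2 to 0.183 for Dapk1. Rsad2, the antiviral protein viperin, was at 77.2 and 92.1 CPM in fl/fl cells and 423 and 326 CPM in wt/wt cells. Runx3, a transcription factor of the runt family, was at 44.9 and 44.4 CPM in fl/fl cells and 247 and 191 CPM in wt/wt cells. Dapk1, a calmodulin-regulated kinase, was at 18.4 and 17.7 CPM in fl/fl cells and 86.0 and 72.9 CPM in wt/wt cells. All 3 fell in fl/fl cells, each with an adjusted p of 0.00879 (edgeR). They were picked for likeness to Abca1 in these same libraries, so their fall follows from that choice and adds no support. For Nr1h3 the nearest were the low-expressed Gm15890, Ifi203-ps and Gm12862 (distances 0.0407, 0.0634 and 0.0785), none of which passed the test. Ifi203-ps, the most abundant of them, was at 3.44 and 9.53 CPM in fl/fl cells and 10.96 and 9.84 CPM in wt/wt cells.

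Of 122 further genes of the pathway, in 8 lists also chosen with earlier results of these data known, 101 were tested. Of these, 2 rose and 7 fell in fl/fl cells and 92 did not pass, beside 2.69% of all tested genes that rose and 3.16% that fell. The same shares stand beside each list below, so few calls in a list do not set it apart from other genes. The median log2 fold change of the 101 genes was −0.12. Both fl/fl libraries were below both wt/wt libraries for 33 genes and above for 21, beside 26.3% and 28.1% of all tested genes.

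Among the oxysterol genes, 2 of 4 tested fell and 2 did not pass. Ch25h, which makes the oxysterol 25-hydroxycholesterol, had 1 and 1 counts in fl/fl cells, against 42 and 37 counts in wt/wt cells. The summed counts of 2 and 79, scaled by library, gave a 27.7-fold lower level in fl/fl cells, with an exact 95% counting interval of 7.43 to 233 (adjusted p = 0.0361, edgeR; the call ended with any single library left out and in limma-voom, at 0.0728). Gpr183, the receptor that guides immune cells along oxysterol gradients, was at 10.5 and 15.2 CPM in fl/fl cells and 42.9 and 43.2 CPM in wt/wt (log2 fold change −1.74 ± 0.23, SE; adjusted p = 0.0158, edgeR). Both groups were well apart. Cyp27a1, the mitochondrial enzyme that makes 27-hydroxycholesterol, was at 106 and 196 CPM in fl/fl cells and 137 and 145 CPM in wt/wt cells, with overlap (adjusted p = 0.886, edgeR). Cyp7b1 was at 0.699 and 3.25 CPM in fl/fl cells and 0.359 and 0.479 CPM in wt/wt (adjusted p = 0.206, edgeR).

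Of the 14 other LXR targets tested, 2 fell and 12 did not pass (median −0.27). Arl4c, a small GTPase that helps bring cholesterol to the surface, was at 159 and 173 CPM in fl/fl cells and 435 and 411 CPM in wt/wt (log2 fold change −1.35 ± 0.16, SE; adjusted p = 0.0132, edgeR). Pltp, the phospholipid transfer protein, was at 13.4 and 19.97 CPM in fl/fl cells and 53.5 and 57.4 CPM in wt/wt (−1.73 ± 0.23; adjusted p = 0.0159, edgeR). For both, the groups were far apart. Other targets did not pass: Mlxipl, the glucose-sensing factor ChREBP, had 1.398 and 1.83 CPM in fl/fl cells and 4.67 and 10.5 CPM in wt/wt (adjusted p = 0.0525, edgeR). Mlxipl was lower in all 15 alternative settings and passed in 7. Smpdl3a, a sphingomyelinase-like nucleotide phosphodiesterase, pointed the other way, at 618 and 638 CPM in fl/fl cells and 313 and 410 CPM in wt/wt (log2 fold change 0.79, adjusted p = 0.0598, edgeR). Smpdl3a was higher in all 16 alternative settings and passed in 4.

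None of the 9 LXR partners and coregulators tested passed (median −0.14). Ncoa3, a coactivator, had the smallest p, at 145 and 154 CPM in fl/fl cells and 269 and 202 CPM in wt/wt (log2 fold change −0.65, adjusted p = 0.0975, edgeR). Ncoa3 was lower in all 16 alternative settings and passed in 2. The mediator subunit Med1 (log2 fold change −0.25) and the corepressor subunit Tbl1x (−0.24) had adjusted p-values of 0.435 and 0.468 (edgeR).

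On the SREBP side, none of the 6 genes of SREBP processing passed (median −0.06), where 2.69% of all tested genes rose and 3.16% fell. Insig1, which holds SREBP in the endoplasmic reticulum, came nearest, at 155 and 186 CPM in fl/fl cells and 366 and 269 CPM in wt/wt (log2 fold change −0.89, adjusted p = 0.0554, edgeR). Insig1 passed as lower in 8 of 16 alternative settings, DESeq2 (adjusted p = 0.00174) and the edgeR fit without fl/fl 2 (0.0291) among them. Of 22 genes of cholesterol synthesis and LDL uptake, 1 fell and 21 did not pass (median −0.19). The 1 that fell was Cyp51, lanosterol demethylase, at 40.8 and 34.8 CPM in fl/fl cells and 63.1 and 67.6 CPM in wt/wt (−0.79 ± 0.17, SE; adjusted p = 0.0473, edgeR; 0.0826 without fl/fl 2). Dhcr7, which completes the pathway, was at 7.34 and 7.88 CPM in fl/fl cells and 15.9 and 15.4 CPM in wt/wt cells and did not pass (adjusted p = 0.0562, edgeR). Dhcr7 was lower in all 16 alternative settings and passed in 4.

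Of 13 genes of fatty acid synthesis, 1 rose and 12 did not pass (median −0.20). Mid1ip1, an activator of acetyl-CoA carboxylase, rose, at 49.96 and 58.6 CPM in fl/fl cells and 23.5 and 28.3 CPM in wt/wt (log2 fold change 1.07 ± 0.19, SE; adjusted p = 0.0276, edgeR). Acacb, an acetyl-CoA carboxylase, had 29 and 12 counts in fl/fl cells and 3 and 0 in wt/wt cells, and did not pass (adjusted p = 0.122, edgeR). Acacb was higher in all 14 alternative settings and passed in 1. Acly, which makes cytosolic acetyl-CoA, was at 218 and 166 CPM in fl/fl cells and 287 and 270 CPM in wt/wt (adjusted p = 0.146, edgeR).

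Of 20 genes of cholesterol trafficking and esterification, 1 fell and 19 did not pass (median −0.04). Cyb5r3, a reductase that serves desaturation and sterol demethylation, was at 47.9 and 48.4 CPM in fl/fl cells and 75.2 and 86.6 CPM in wt/wt (log2 fold change −0.75 ± 0.16, SE; adjusted p = 0.0478, edgeR; 0.0726 without fl/fl 1 and 0.0616 without fl/fl 2). Npc1, which lets cholesterol out of lysosomes, was at 27.5 and 27.8 CPM in fl/fl cells and 62.0 and 43.4 CPM in wt/wt (adjusted p = 0.0557, edgeR). Npc1 was lower in all 16 alternative settings and passed in 7, DESeq2 among them (adjusted p = 0.00633). Cyb5r3 and Npc1 were both lower in each fl/fl library than in either wt/wt library.

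Of 13 other ABC transporters, 1 rose and 1 fell (median 0.22). Abca13 rose, at 40.9 and 22.2 CPM in fl/fl cells and 4.13 and 3.32 CPM in wt/wt (log2 fold change 3.08 ± 0.35, SE; adjusted p = 0.0120, edgeR). Abcc1, an exporter of glutathione conjugates and leukotriene C4, fell, at 23.9 and 30.9 CPM in fl/fl cells and 56.6 and 56.5 CPM in wt/wt (−1.04 ± 0.19; adjusted p = 0.0301, edgeR). Abcc5, a transporter of cyclic nucleotides, was at 79.1 and 114 CPM in fl/fl cells and 47.2 and 53.5 CPM in wt/wt cells and did not pass (adjusted p = 0.0541, edgeR). Abcc5 was higher in all 16 alternative settings and passed in 4. Among all tested genes, 2.69% rose and 3.16% fell, so 1 call each way gives no direction for these subfamilies.

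**Figure D3:**
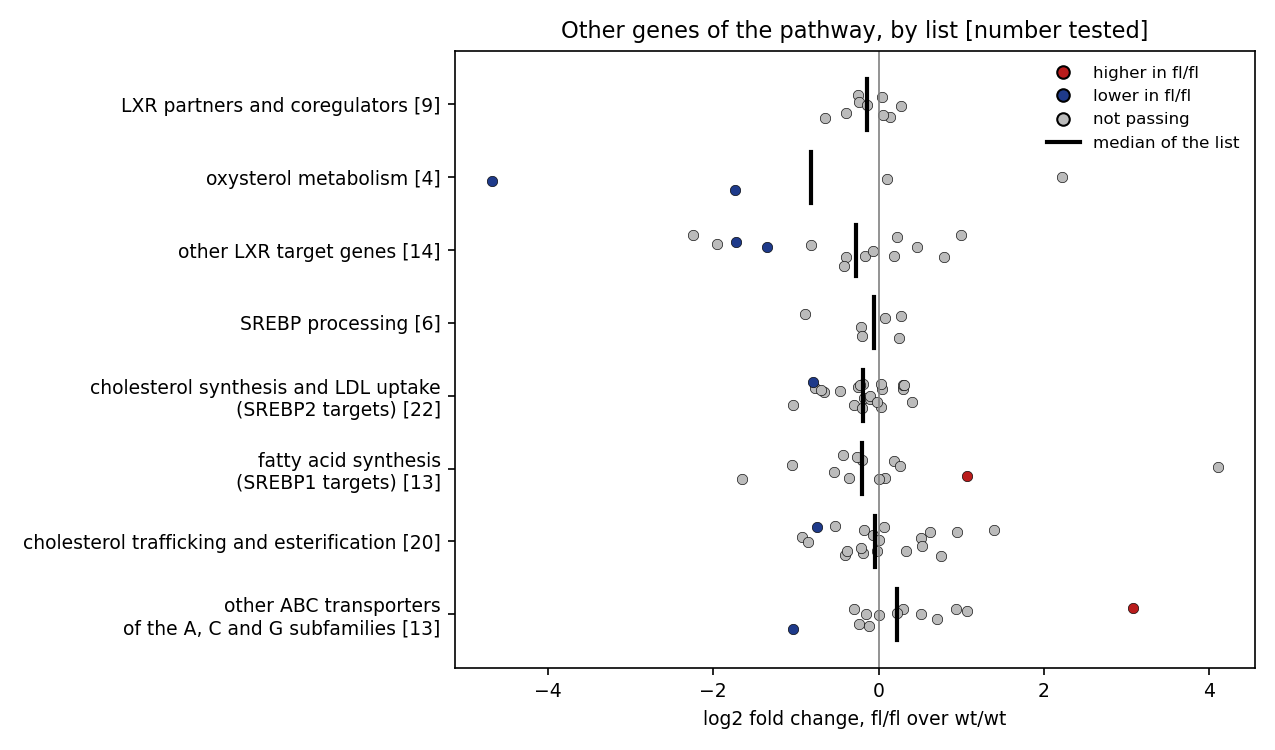
Log2 fold change (fl/fl over wt/wt) of the tested genes of the 8 pathway lists, 1 point a gene, red or blue where the gene passed the edgeR test as higher or lower, with the list median as a black bar. The oxysterol genes have the lowest median, −0.82 over 4 tested genes, and the outermost points, Ch25h at the left and Acacb at the right, are fitted values that depend on the prior count.

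Cell type markers moved between the genotypes as well, and their part in the results was not tested. Of 7 general macrophage markers, all 7 were lower in both fl/fl libraries and 3 passed, with summed levels of 2380 and 2358 CPM in fl/fl cells, against 5537 and 5168 CPM in wt/wt cells. Among those that fell were Lgmn, a lysosomal protease (306 and 185 CPM in fl/fl cells, 1146 and 1124 CPM in wt/wt cells), and Fcgr1, a high-affinity immunoglobulin receptor (242 and 181 CPM in fl/fl cells, 479 and 394 CPM in wt/wt cells). Adgre1, which encodes F4/80, was 150 and 156 CPM in fl/fl cells and 178 and 183 CPM in wt/wt cells and did not pass (adjusted p = 0.406, edgeR).

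Neutrophil markers rose, 10 of 10, with sums of 38187 and 16483 CPM in fl/fl cells, against 2736 and 3195 CPM in wt/wt cells. Granulocyte precursor markers rose, 7 of 7 tested, with sums of 1665 and 550 CPM in fl/fl cells, against 62.0 and 51.7 CPM in wt/wt cells. Of the 12 Kupffer cell list genes, 7 were tested and 4 fell (the C1q chains and Hmox1), with sums of 376 and 267 CPM in fl/fl cells and 1013 and 1050 CPM in wt/wt cells. Others went the other way: Slc40a1 was at 72.3 and 54.9 CPM in fl/fl cells, against 8.27 and 34.1 CPM in wt/wt cells (adjusted p = 0.164, edgeR). Vsig4 and Marco, not tested, were also higher in both fl/fl libraries, at no more than 1.198 CPM. The sums thus do not follow the markers that define Kupffer cells. Cell cycle genes rose, 4 of 6, with sums of 709 and 239 CPM in fl/fl cells, against 68.1 and 39.2 CPM in wt/wt cells. In the classical monocyte list, 2 of 8 genes rose and 1 fell, with sums of 16766 and 8815 CPM in fl/fl cells and 9892 and 8531 CPM in wt/wt cells. Single genes weighed heavily in these sums. Chil3, which did not pass, was at 8404 and 2069 CPM in fl/fl cells and 1370 and 714 CPM in wt/wt cells. Fn1, which fell, was at 1777 and 1266 CPM in fl/fl cells and 4708 and 3806 CPM in wt/wt cells. Of the T and NK cell list, 2 of 4 tested genes rose, with sums of 12.8 and 18.9 CPM in fl/fl cells and 3.68 and 3.65 CPM in wt/wt cells. The genes that rose were Gzma (8.44 and 12.1 CPM in fl/fl cells, 1.21 and 1.18 CPM in wt/wt cells) and Prf1. Cd3d and Klrb1c overlapped between the genotypes. Cd3e, Trac and Ncr1 did not pass the filter on low counts, and Trac and Ncr1 were lower in both fl/fl libraries. Non-classical monocyte, dendritic, B, erythroid, endothelial, stellate and cholangiocyte lists had 0 genes that passed. None of the 10 hepatocyte markers passed (sums 222 and 427 CPM in fl/fl cells, 282 and 392 CPM in wt/wt cells). Most of these sums came from 1 gene, Trf, the transferrin gene, at 199.9 and 324 CPM in fl/fl cells and 215 and 349.9 CPM in wt/wt cells. Apart from Alb, the other 8 markers reached at most 12.7 CPM in any library, for Apoa2 in fl/fl 2.

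**Figure D4:**
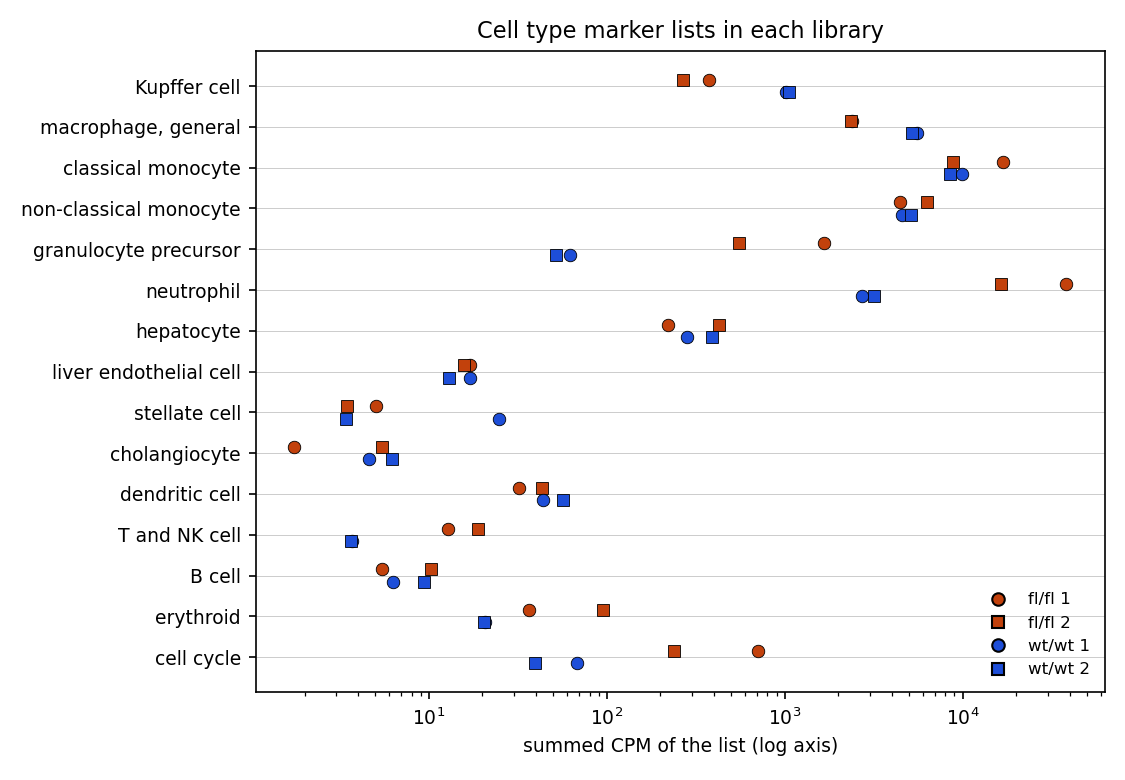
Summed CPM of the 15 cell type marker lists in each library (log axis), fl/fl drawn above wt/wt; circles are library 1 and squares library 2. Neutrophil sums lie at 38187 and 16483 CPM in fl/fl cells and 2736 and 3195 CPM in wt/wt cells, and general macrophage sums at 2380 and 2358 CPM in fl/fl cells and 5537 and 5168 CPM in wt/wt cells.

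Against the summed macrophage list, the ratios of the 9 genes are described by whether the groups overlapped. The share of all genes whose ratios do not overlap was not counted. On CPM alone, 26.3% of tested genes had both fl/fl libraries below both wt/wt libraries, and 28.1% had both above. The list itself was lower in fl/fl cells (2380 and 2358 CPM, against 5537 and 5168 CPM in wt/wt cells). A gene that was level, such as Nr1h2, or that fell less than the list therefore has a higher ratio by arithmetic. The ratio of Abca1 to the list was 0.00443 and 0.00486 in fl/fl cells, against 0.0105 and 0.00858 in wt/wt cells, and that of Abcc3 was 0.00866 and 0.00298 in fl/fl cells, against 0.0263 and 0.0235 in wt/wt cells. Both were lower in each fl/fl library. The ratios of Apoe (1.31 and 0.761 in fl/fl cells, 1.27 and 1.39 in wt/wt cells), Mylip (0.00744 and 0.00532 in fl/fl cells, 0.00760 and 0.00589 in wt/wt cells) and Nr1h3 (0.00264 and 0.00690 in fl/fl cells, 0.00347 and 0.00334 in wt/wt cells) overlapped between the genotypes. The ratios of Abcg1 (0.0259 and 0.0437 in fl/fl cells, 0.0244 and 0.0210 in wt/wt cells), Nr1h2 (0.0805 and 0.0708 in fl/fl cells, 0.0347 and 0.0298 in wt/wt cells), Srebf1 and Srebf2 were higher in both fl/fl libraries. The markers differed in how far they fell. Set against Adgre1 alone, chosen after its values were seen, Apoe was at 20.8 and 11.5 in fl/fl cells and 39.7 and 39.2 in wt/wt cells, and Abca1, Abcc3, Apoe, Mylip and Srebf2 were lower in both fl/fl libraries while Abcg1, Nr1h2, Nr1h3 and Srebf1 overlapped. No ratio was tested, for the reason given above for the exporters.

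**Figure D5:**
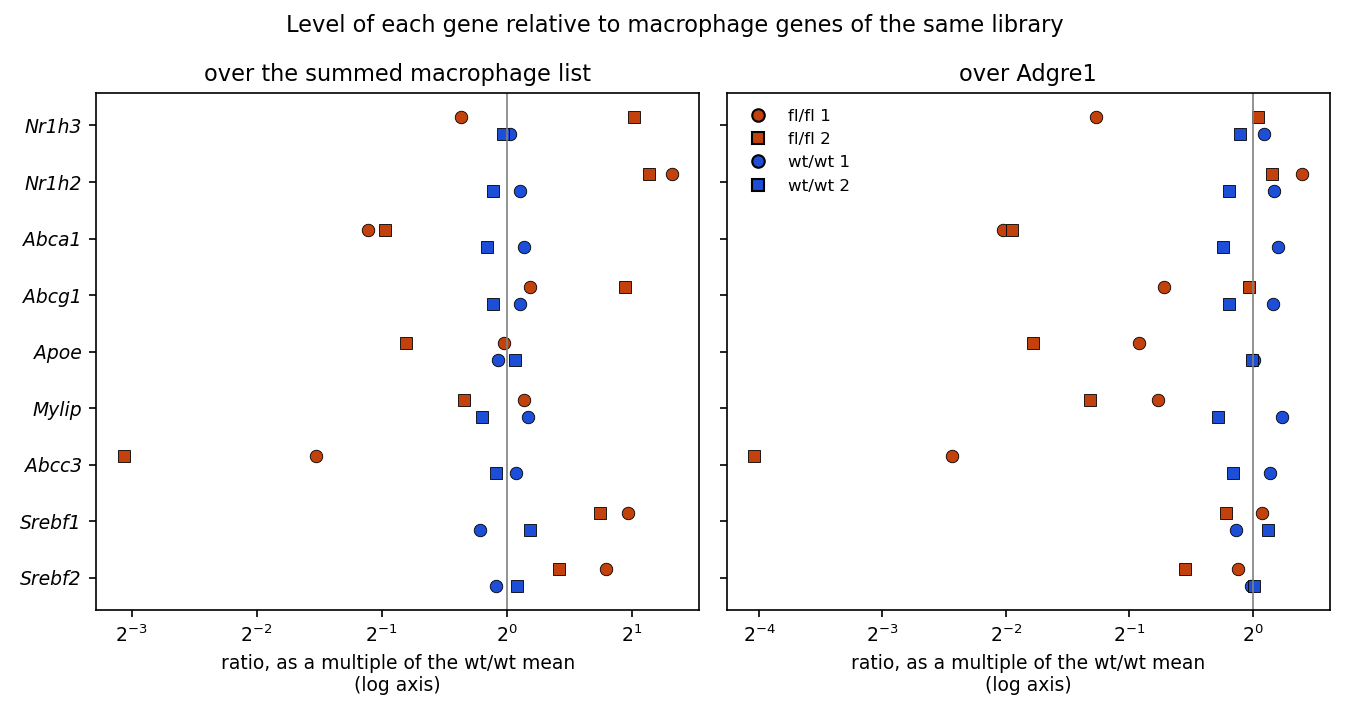
Ratio of each of the 9 genes to the summed CPM of 7 general macrophage markers (left) and to Adgre1 (right) in each library, drawn as a multiple of the mean wt/wt ratio on a log axis, fl/fl above wt/wt. On the left, Abca1 and Abcc3 are lower in both fl/fl libraries and Apoe, Mylip and Nr1h3 overlap; on the right, Abca1, Abcc3, Apoe, Mylip and Srebf2 are lower.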

How the data were processed

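Raw counts, whole numbers for 55487 Ensembl genes in each of the 4 libraries, were deposited by the authors as 1 table. The tools named are STAR 2.5.0, Trimmomatic 0.33 and FastQC 0.11.5, with the GRCm38 build, per the submitters' processing notes. How reads were counted, on which strand and with which annotation is not given in the sources used here, so reads of genes that overlap on opposite strands cannot be told apart. Symbols, positions and exon lengths were taken from GENCODE M21 (GRCm38), in which 55141 of the identifiers were found and 346 were not.

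Differences between the genotypes were tested in edgeR 4.0.16 (R 4.3.3) by the quasi-likelihood F test, with TMM factors, no covariate and a minimum count of 10 in filterByExpr; 13496 genes remained of the 22696 with any count. Two-sided p-values had Benjamini-Hochberg adjustment across the 13496 genes, and the threshold was 0.05. Fold changes put fl/fl over wt/wt (prior count 0.125), and each SE was obtained by dividing the log2 fold change by the root of F. Steps were tested on simulated data. Levels between genes are counts per base of merged exons, scaled to the same total in each library. Counting intervals and limits cover counting error only.

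Within each genotype the libraries differed by more than sampling noise (chi-square per degree of freedom 66.3 for fl/fl and 35.8 for wt/wt), so neither pair is a repeat deposit of 1 library. That does not show that they are independent samples. Il10ra was taken as the floxed gene, since IL10R in the labels does not say which chain. The 9 genes, the pathway lists and the marker lists were chosen with earlier results of these data known. Genes named are the 9, Il10ra, up to 4 genes of each pathway list with the smallest p, up to 3 most expressed markers of a list, and the 3 genes nearest in pattern to Abca1 and to Nr1h3. Others, such as Csf1r, Adgre1 and Fcgr1, were named after their values were seen. A few genes within the rule are left unreported. Alternatives were other scalings, filters and prior counts, DESeq2 1.42.0, limma-voom (limma 3.58.1), a replicate block, a null hypothesis of a change within 1.5-fold, and each library left out in turn.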

Additional observations from a re-analysis of the deposited data

How the results depend on the processing

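Over all alternatives, 0 of the 9 genes passed as higher. The number that passed as lower, 4, was 2 against a fold change of 1.5 (Abca1 and Abcc3), 6 with no filter (Abcg1 and Srebf2 added), and from 0 to 6 with 1 library left out. Among all genes, 363 were higher and 427 lower. These counts became 1017 and 1071 with no filter, 784 and 834 with DESeq2, 128 and 191 against a fold change of 1.5, and from 0 to 811 and from 0 to 666 with 1 library left out. Of the pathway genes outside the 9, 2 were higher and 7 lower, against 8 and 16 with no filter, 4 and 13 with DESeq2, 1 and 3 against a fold change of 1.5, and from 0 to 4 and from 0 to 10 with 1 library left out. DESeq2 on 3 libraries, added after seeing the data, called 222 genes lower and 1 pathway gene higher and 4 lower without wt/wt 1, and 4 pathway genes higher without wt/wt 2. With the replicate number as a block, 602 genes were higher and 613 lower, with 4 pathway genes higher and 10 lower, and the same number of the 9 genes, 4, lower. The libraries share only a number: deviations of same-numbered libraries correlated at 0.0215, and with 2 pairs the numbers were not taken as pairs. With 1 library left out, the log2 fold change of Nr1h2 ran from −0.10 to 0.17 and that of Cyp27a1 from −0.41 to 0.44. The sign of Nr1h2 turned to −0.09 without fl/fl 1, −0.10 without wt/wt 2 and −0.12 with DESeq2 without wt/wt 2, and that of Cyp27a1 to −0.41 without fl/fl 2. The cause of these changes was not tested, apart from the number of genes or libraries that a setting removes. Higher genes made up 45.9% of the calls, 36.3% without fl/fl 1, 38.3% with limma-voom, 54.9% without fl/fl 2 and 55.2% with DESeq2 without wt/wt 1, and other scalings kept this share between 44.2% and 45.5%. A library left out leaves 1 in its group, assumed to vary like the other group. With 2 libraries a group, an exact permutation test cannot pass, and genes of a few counts such as Ch25h and Acacb are limited by depth.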

Other observations

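Some other genes of the axis differed widely between the fl/fl libraries, and they were named after their values were seen. Mertk, a receptor for dying cells and an LXR target, was at 5.71 and 0.228 CPM in the fl/fl libraries 1 and 2, against 10.1 and 13.04 CPM in wt/wt 1 and 2. Rxra, the retinoid X receptor that partners LXR, was at 45.5 and 107 CPM in fl/fl cells, against 58.5 and 68.2 CPM in wt/wt cells. Scd1, a fatty acid desaturase, was at 0.815 and 12.1 CPM in fl/fl cells, against 6.11 and 3.32 CPM in wt/wt cells. Lpl, lipoprotein lipase, was at 55.6 and 136 CPM in fl/fl cells, against 120 and 80.6 CPM in wt/wt cells. None of these 4 genes passed edgeR's test. Fl/fl 2 was the higher of the pair for Rxra, Scd1 and Lpl, as it was for Nr1h3, Abcg1 and, by little, Abca1. It was the lower for Mertk, as it was for Apoe, Abcc3, Mylip, Nr1h2, Srebf1 and Srebf2. These libraries also differed in Xist and in the neutrophil marker sums, as given above, and the part of either was not tested.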
